A study of Mus musculus with 11 samples.

Results

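The genes described here are 9 components of bone morphogenetic protein (BMP) and TGF-beta signalling, taken by symbol from the gene tables of single-cell RNA sequencing of mouse liver mesenchyme: the ligand genes Gdf2 (which encodes BMP9), Bmp10, Bmp4 and Bmp5, the inhibitor genes Bambi, Smad6 and Smad7, and the target genes Id1 and Id3. They are 9 of 27998 genes in the droplet (10x) tables and 9 of 23997 in the plate (Smart-seq2, SS2) tables, and all 9 were found in both. Every animal was an adult male Pdgfrb-BAC-eGFP mouse on a C57BL/6 background, in which GFP is driven by Pdgfrb regulatory sequence, so cells without reporter activity lay outside the gate. GFP-positive cells negative for the leucocyte marker CD45 and the endothelial marker CD102 were sorted from uninjured liver (labelled Healthy), from liver 72 h after a single injection of carbon tetrachloride (CCl4), a hepatotoxin that injures hepatocytes around the central vein, from liver after 6 weeks of repeated CCl4 injections, and from liver 14 days after bile duct ligation (BDL), which injures the portal area.

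There were 5 10x libraries, each pooled from 3 mice. Uninjured, 72 h and 6-week liver were each prepared once by a protocol labelled HSC (perfusion and density gradient, for hepatic stellate cells), and uninjured and 6-week liver once each by a protocol labelled PF (digestion of minced liver). Each condition thus had 1 library per protocol, no test between 10x conditions was possible, and condition, pool of mice and library cannot be told apart. The 6 SS2 plates held uninjured, 6-week CCl4 and BDL cells in 17 portions, a portion being the wells that 1 plate's layout assigns to 1 label. Whether a mouse was used on several plates is not stated in the labels, so tests over portions measure a spread that may be partly technical. Cells were assigned to fibroblast-like (FB-like), hepatic stellate cell-like (HSC-like) and vascular smooth muscle cell-like (VSMC-like) classes by clustering without the 9 genes or 90 other pathway genes and by marker sets of 8, 8 and 6 genes. The HSC protocol libraries gave 6850 HSC-like cells uninjured, 7293 at 72 h and 5431 at 6 weeks. From the PF protocol, 4062 FB-like and 1669 VSMC-like cells were obtained uninjured, and 2639 and 3000 after 6 weeks. Median depth was 6718, 11344 and 9893 UMIs per cell in the HSC protocol libraries in that order and 4300 and 5097.5 in the PF protocol libraries, with 33 to 74 cell barcodes shared by any pair of libraries. The uninjured HSC-like cells were mostly of clusters led by Fcna and Hhip (4089 cells) or of another cluster of 2137 cells, whereas those at 72 h were mostly of a cluster led by Cthrc1 and Ltbp2 (3428 cells) and those at 6 weeks of 3 clusters of 1695, 1655 and 1552 cells. Class comparisons therefore set unlike clusters of a class beside each other.

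BMP ligands are secreted dimers that bind pairs of type I and type II serine/threonine kinase receptors, which phosphorylate SMAD1, SMAD5 and SMAD8. These enter the nucleus with SMAD4 and switch on targets that include the Id genes and the inhibitory SMAD genes. BMP9 and BMP10 act with high affinity through the receptor ALK1 on endothelium, and the liver is a known source of circulating BMP9. BAMBI is a membrane pseudoreceptor without a kinase domain that blocks TGF-beta and BMP receptor signalling. SMAD6 mainly inhibits BMP signalling and SMAD7 both branches, and ID1 and ID3 are helix-loop-helix proteins that lack a DNA-binding domain and hold back bHLH transcription factors.

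The region upstream of the start of Gdf2, Bmp10 and Bmp5 is printed because these ligand genes were detected at a high level in HSC-like cells and at a low level or not at all in the other classes. Each line holds the 250 bases before the annotated start of the gene (RefSeq, GRCm38.p6, plus strand, 5′ to 3′), at chr14:33940789-33941038 for Gdf2, chr6:87428744-87428993 for Bmp10 and chr9:75775115-75775364 for Bmp5. Capitals mark GTCT or its reverse complement AGAC, the letters of the SMAD box that SMAD4 can bind, searched on both strands.
Gdf2: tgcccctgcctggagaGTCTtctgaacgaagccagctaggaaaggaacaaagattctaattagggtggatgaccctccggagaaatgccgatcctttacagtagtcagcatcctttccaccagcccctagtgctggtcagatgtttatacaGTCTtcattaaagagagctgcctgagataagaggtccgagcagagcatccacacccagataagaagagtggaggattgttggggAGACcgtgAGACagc
Bmp10: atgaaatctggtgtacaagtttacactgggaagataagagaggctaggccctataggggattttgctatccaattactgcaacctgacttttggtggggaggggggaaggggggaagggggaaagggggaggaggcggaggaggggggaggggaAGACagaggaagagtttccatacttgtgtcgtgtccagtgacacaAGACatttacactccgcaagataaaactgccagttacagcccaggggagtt
Bmp5: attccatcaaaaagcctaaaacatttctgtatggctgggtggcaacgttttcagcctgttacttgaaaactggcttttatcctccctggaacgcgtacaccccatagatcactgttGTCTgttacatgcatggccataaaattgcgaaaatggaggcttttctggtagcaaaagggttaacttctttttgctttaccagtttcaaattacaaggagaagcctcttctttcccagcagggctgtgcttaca
There were 4 such matches before Gdf2, 2 before Bmp10 and 1 before Bmp5. These 4 letters occurred in 27221 of 32851 promoter windows of that length (82.9%), so a match does not set the genes apart. The motif GGCGCC, a GC-rich site of BMP-responsive SMADs, was in none of the 6 member windows in the RefSeq table and in 9.59% of all windows. GC content was 50.4% for Gdf2, 52% for Bmp10 and 42.8% for Bmp5. The other windows held were those of Bmp4, Smad6 and Id3, with 1, 1 and 2 SMAD boxes. The Id3 window (chr4:136143572-136143821) precedes the RefSeq start but lies inside the gene as annotated by GENCODE, which starts at 136143497.

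On GRCm38 with the GENCODE vM21 annotation, all 9 are protein-coding genes: Gdf2 at chr14:33941039-33947198 and Bmp4 at chr14:46383520-46390669 share a chromosome, as do Bmp5 at chr9:75775364-75900310 and Smad6 at chr9:63953076-64022059. Bambi (chr18:3507923-3516404) and Smad7 (chr18:75367529-75395935) share another, and Bmp10 lies at chr6:87428994-87437677, Id1 at chr2:152736251-152737410 and Id3 at chr4:136143497-136145755.

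Gdf2 and Bmp10 were read almost only in HSC-like cells, Bmp5 was highest there, Bmp4 was shared by HSC-like and FB-like cells, and Id1 was highest in VSMC-like cells. Levels are given as UMIs for every 1000000 UMIs of the class in a library (CPM), which count transcript ends and do not depend on gene length. Gdf2 was at 706 CPM in uninjured HSC-like cells, 405 at 72 h and 689 at 6 weeks. In FB-like cells it was at 1.68 CPM uninjured (34 UMIs) and 1.65 at 6 weeks (28 UMIs), and in VSMC-like cells there was no UMI uninjured, which allows up to 0.521 CPM, and 0.426 CPM at 6 weeks. Every HSC-like level lay far above those of the other classes. A Gdf2 UMI was found in 97.2% of uninjured HSC-like cells against 0.665% of uninjured FB-like cells (median depths 6718 and 4892.5 UMIs), and 74.5% against 0.336% after each cell was thinned to 2000 UMIs. Thinning left out the cells under that depth, which were 114 uninjured HSC-like cells, 189 and 91 FB-like cells and 155 and 284 VSMC-like cells (uninjured and 6 weeks). The Gdf2 UMIs of uninjured FB-like cells were uneven between clusters, with 4.69 CPM (3.14 to 6.73) in the cluster led by Saa3, Ptn and Wif1 and 0 to 0.528 CPM in the other FB-like clusters, and no empty droplets were measured here, so whether this low level was free RNA was not tested. Bmp10, the closest relative of BMP9, was at 131 CPM in uninjured HSC-like cells, 40.0 at 72 h and 125 at 6 weeks. No Bmp10 UMI was found in any of the 4062 and 2639 FB-like or 1669 and 3000 VSMC-like cells; with no count the share of cells with a UMI could still be as high as 0.0739%, 0.114%, 0.180% and 0.10% (3 counts; the limits say nothing of cells that express Bmp10 too weakly to give a UMI, and these limits and all intervals on 10x values cover counting error only). Uninjured HSC-like cells held a Bmp10 UMI in 55.2% of cells.

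Bmp5, a BMP of the BMP7 subgroup, was at 494 CPM in uninjured HSC-like cells, 211 at 72 h and 495 at 6 weeks. Its level was 10.5 and 18.3 CPM in FB-like and 9.03 and 17.0 CPM in VSMC-like cells, uninjured and at 6 weeks, far under every HSC-like value. Bmp4, which belongs with Bmp2 to another BMP subgroup, followed a different order. It was at 171 CPM in uninjured FB-like cells and 130 at 6 weeks, against 102, 34.3 and 56.7 CPM in HSC-like cells uninjured, at 72 h and at 6 weeks. In VSMC-like cells it was at 29.7 and 17.6 CPM, 5.74-fold (95% interval 4.92 to 6.73) below FB-like cells of the same uninjured library and 7.41-fold (6.49 to 8.48) below at 6 weeks. Among the inhibitors, Bambi was at 394 CPM in uninjured HSC-like cells, against 133 CPM in FB-like cells and 122 in those of the VSMC-like class. Smad6 (26.66, 16.01 and 29.02 CPM) and Smad7 (66.9, 36.4 and 91.0 CPM in the same order) were low in every class. Id1 was at 518 CPM in uninjured VSMC-like cells, 17.8-fold (16.3 to 19.5) above FB-like cells of the same library at 29.1 CPM, and HSC-like cells were at 38.9 CPM. Id3 was the most abundant of the 9 in each class, from 737 CPM in uninjured FB-like to 1492 in VSMC-like cells. The study listed Gdf2, Bmp10, Bmp5 and Bambi among its HSC markers, Bmp4 among its fibroblast markers and Id1 among its VSMC markers from these same libraries, so the class pattern is a description and not independent evidence. HSC-like and PF-protocol cells also came from different libraries, so class and protocol cannot be told apart in a comparison of HSC-like cells with the others.

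**Figure D1:**
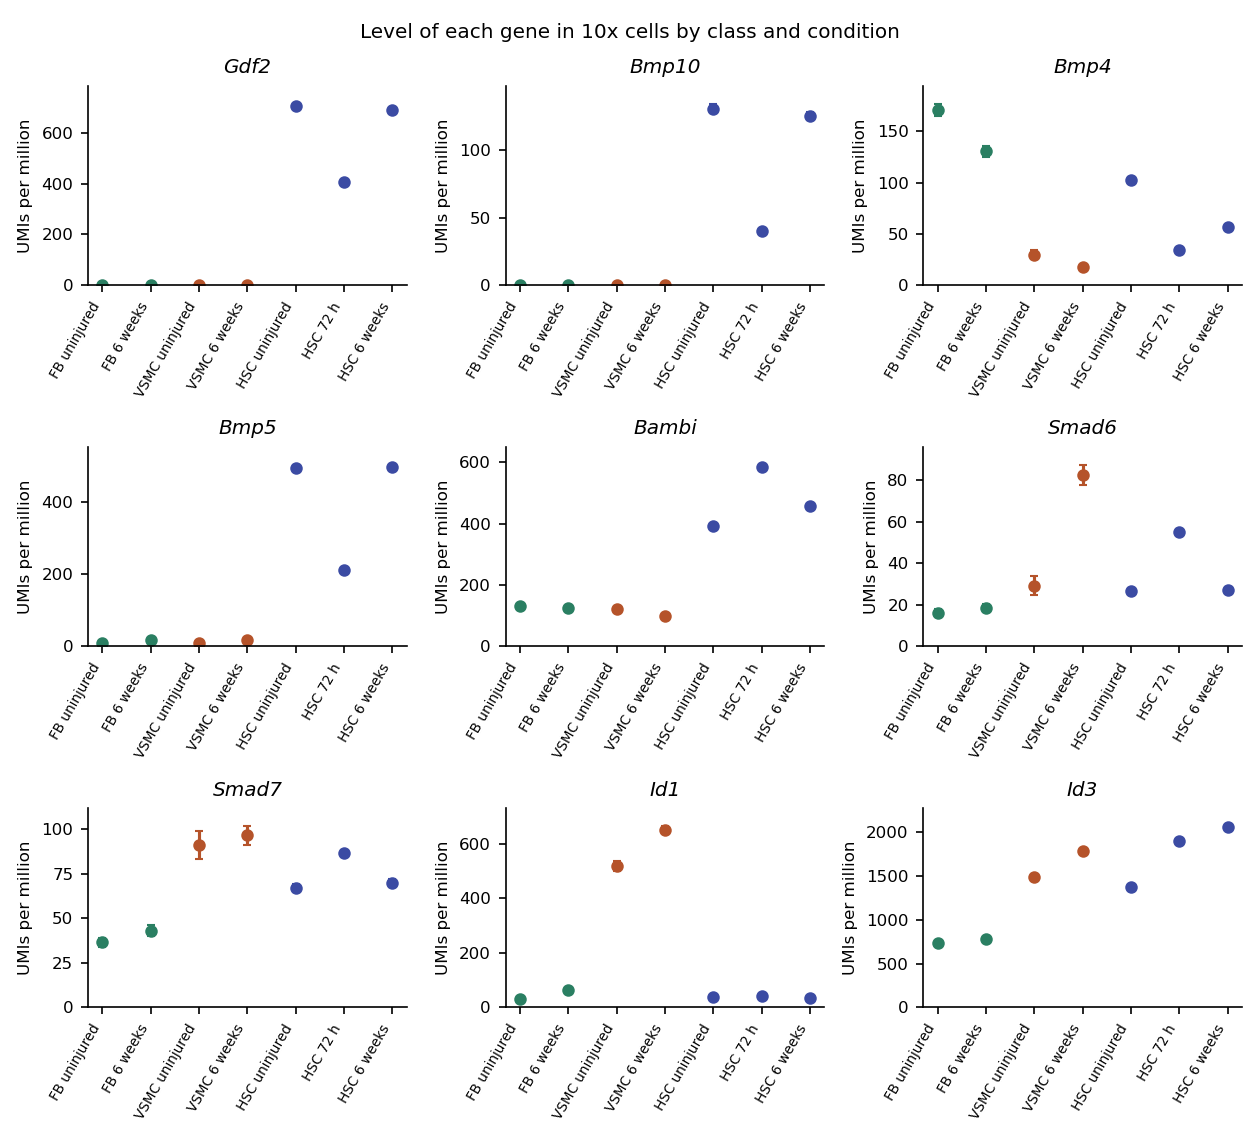
Level of each of the 9 genes in CPM (linear axis from 0, a scale for each gene) in the 7 groups of a cell class in a 10x library; each point is 1 library pooled from 3 mice and its bar the 95% Poisson interval (counting error only). Gdf2 and Bmp10 lie high in the 3 HSC-like groups and near or at 0 in the 4 FB-like and VSMC-like groups, while Id1 is highest in the VSMC-like groups at 518 and 653 CPM.

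The plate data, made with another chemistry, gave the same 2 ligands in stellate cells. In the 312 HSC-like wells, from 2 uninjured portions of 1 plate, Gdf2 was at 2649 and 2765 reads for every 1000000 reads of the class in a portion (RPM) and was read in every well. Bmp10 was at 87.0 and 75.1 RPM, with a read in 52.6% and 54.4% of wells. RPM values count fragments along the transcript and so depend on gene length, and were not compared between genes. Bmp5 was at 993 and 1010 RPM, Bmp4 at 103 and 106 RPM, and Bambi at 475 and 483 RPM. No Bmp10 read was found in any of the 15 FB-like portions. In VSMC-like wells Bmp10 was found only on the plate that also held the HSC-like wells, with 17 reads. On that plate 38.2% of the 34 VSMC-like wells had a Gdf2 read, at a level of 7.86 RPM. Uninjured VSMC-like wells of plate 4, which held no HSC-like wells, had Gdf2 at 9.78 RPM. Whether reads passed between wells of a plate was not tested.

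At 72 h after CCl4 all 4 ligands were lower in HSC-like cells than in the uninjured library, whereas the 3 inhibitors were higher. Bmp10 was 3.28-fold lower (3.14 to 3.42), Bmp4 2.98-fold lower (2.85 to 3.12), Bmp5 2.34-fold lower (2.29 to 2.39) and Gdf2 1.74-fold lower (1.72 to 1.77). Smad6 went from 26.7 to 55.1 CPM, a fold of 2.06 (1.94 to 2.20), Bambi from 394 to 586 CPM, a fold of 1.49 (1.46 to 1.51), and Smad7 from 66.9 to 86.5 CPM, a fold of 1.29 (1.24 to 1.35). The Id genes did not follow the ligands. Id1 was at 38.9 and 41.2 CPM, a fold of 1.06 whose interval (0.999 to 1.12) includes no difference, and Id3 was 1.38-fold higher (1.37 to 1.40). By a 2-fold rule, 1 of the 9 genes was higher (Smad6) and 3 were lower (Bmp10, Bmp4 and Bmp5), against 591 of 8385 genes higher (7.05%) and 802 lower (9.56%) among all genes that reached 10 CPM in either library. The median log2 fold was 0.08 for the 9 genes and -0.22 for all genes, and the sizes above are not shifted by that median. Smad6 stood nearest to the rule and was 1.86-fold higher when classes were taken from marker scores of each cell. Shares of cells with a UMI moved the same way after thinning to 2000 UMIs per cell: 74.5% and 53.6% of cells had Gdf2, 23.2% and 8.01% Bmp10, 18.1% and 7.31% Bmp4, and 62.9% and 35.03% Bmp5, uninjured and at 72 h. Without thinning, the Bmp10 shares were 55.2% and 33.9%.

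**Figure D2:**
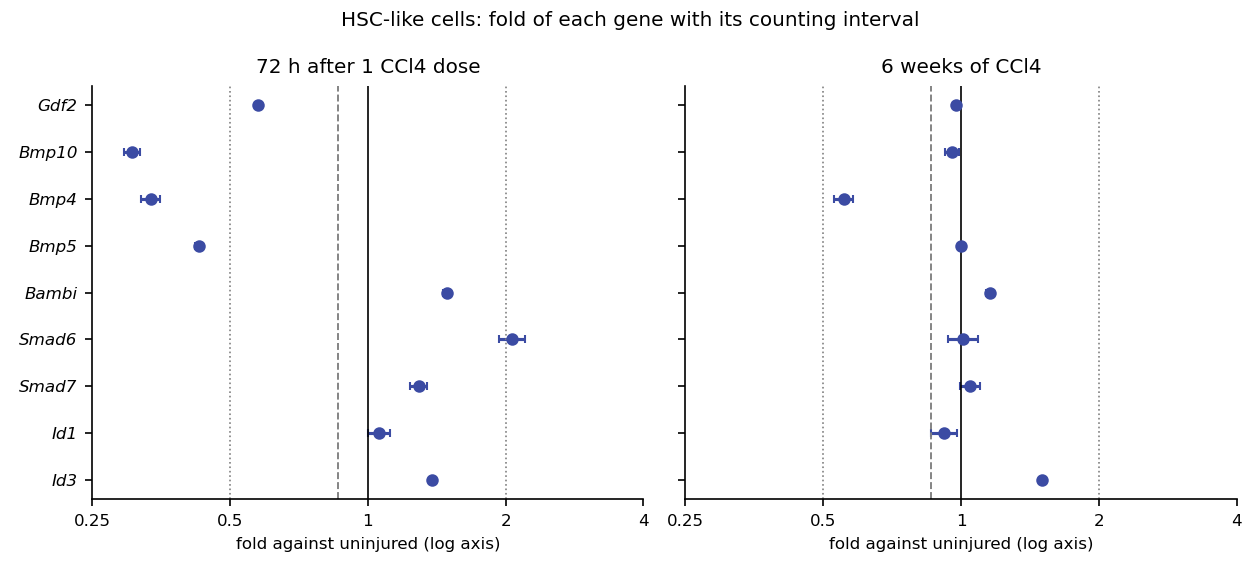
Fold of each gene in HSC-like cells at 72 h and at 6 weeks of CCl4 against the uninjured library (log axis, 95% interval from counting error only, often hidden by the point); the dashed lines give the median of all genes and the dotted lines 0.5 and 2. The 4 ligands lie left of 1 at 72 h, from 0.305 for Bmp10 to 0.574 for Gdf2, and all but Bmp4 (0.554) lie between 0.956 and 1.00 at 6 weeks.

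After 6 weeks of CCl4 the level of 3 of the 4 ligands was close to that of the uninjured library. Gdf2 had a fold of 0.977, Bmp10 of 0.956 and Bmp5 of 1.00, with thinned shares of cells of 72.2%, 21.5% and 61.9%. Clusters differed in direction. In the cluster led by Fcna and Hhip, uninjured and at 6 weeks, Gdf2 was at 731 and 818 CPM and Bmp10 at 139 and 177. Bmp5 was at 516 and 658 CPM there. The cluster led by Cyp4b1 was also higher at 6 weeks for these ligands. In the 6-week clusters of 1695 and 1552 cells, Gdf2 (635 and 653 CPM) and Bmp10 (93.9 and 107 CPM) lay below every uninjured cluster. Over the whole class Bmp4 differed from the other ligands, at 56.7 against 102 CPM, 0.554-fold (0.529 to 0.580). Among the inhibitors Bambi was 1.16-fold, Smad6 1.01-fold and Smad7 1.05-fold the uninjured level. Id3 was 1.502-fold higher (1.49 to 1.52) and Id1 0.920-fold. The Id3 difference was uneven: 1131 and 1285 CPM in the cluster led by Fcna and Hhip, but 1798 and 1668 in that led by Cyp4b1. It was highest, at 2833 CPM, in the 6-week cluster of 1552 cells, which held 42 uninjured cells. The part of cluster make-up in the class fold was not tested. None of the 9 passed the 2-fold rule in either direction, against 2.86% of 8133 genes higher and 1.56% lower. Their median log2 fold was 0.00, and that of all genes was -0.22. Folds this close to 1 depended on scaling: with TMM factors, Gdf2 came to 1.12, Bmp10 to 1.096 and Id1 to 1.05.

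Other measured lists moved with these differences between libraries. The sum of the 8 HSC marker genes was 29718 CPM uninjured, 6519 at 72 h and 17293 at 6 weeks, and the 3 fibrillar collagen genes summed to 2034, 8933 and 3549 CPM. Proliferation genes were at 28.7, 331 and 38.6 CPM, and immediate-early genes, which tissue dissociation can induce, at 11258, 5875 and 9510 CPM. Without the clusters led by cell cycle genes, the same 3 ligands passed the 2-fold rule at 72 h. Markers of endothelium (161, 56.5 and 93.2 CPM) and of hepatocytes (58.8, 23.7 and 61.3 CPM) were at low sums. The 5 mesothelial markers summed to 1.099, 34.2 and 38.2 CPM, with the defining Msln, Upk3b, Lrrn4 and Muc16 at 0 in each library. The 8 FB markers summed to 31.4, 336 and 553 CPM and the 6 VSMC markers to 594, 1996 and 995 CPM. Heat shock genes were at 4209, 1539 and 4081 CPM, lowest at 72 h as the ligands were. The part of these lists in the member differences was not tested.

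Within the HSC-like class, the lower Gdf2 and Bmp10 and the higher Smad6 of 72 h were found in all 5 clusters of at least 100 cells, whereas Bmp4 was uneven. Gdf2 lay between 360 and 537 CPM in the 72 h clusters and between 662 and 732 CPM in the uninjured ones. Between clusters the highest Gdf2 level was 1.11 times the lowest uninjured, 1.49 times at 72 h and 1.29 times at 6 weeks. Bmp10 lay between 26.0 and 61.99 CPM in the 72 h clusters and between 115 and 139 CPM in the uninjured ones. Smad6 lay between 34.7 and 61.1 CPM against 22.8 to 30.1 CPM. Bmp4 was at 96.9 to 106.8 CPM in the uninjured clusters. At 72 h it was at 87.7 CPM in the cluster led by Alpl and 61.1 in the smaller cell cycle cluster, but at 22.3 to 25.3 CPM in the others. Bambi showed an opposite order, at 357 and 240 CPM in those same 2 clusters and 584 to 668 CPM in the others. Smad7 was at 54.7 and 57.5 CPM in those 2 clusters and 89.8 to 103 CPM in the others. The uninjured clusters lay at 208 to 434 CPM for Bambi and 53.1 to 76.5 CPM for Smad7. Those 2 clusters thus lay within the uninjured range for both genes. The lowest uninjured values were of the cluster led by Cyp4b1 and Clec4g. Which uninjured cells correspond to those 2 clusters was not tested, so these ranges do not show whether Bambi and Smad7 differed in them.

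HSC-like cells lie along the axis from portal to central vein, and were divided in each library by the scores of 52 portal and 29 central genes, none of them a member, into portal vein-associated (PaHSC-like) and central vein-associated (CaHSC-like) cells. There were 2988 and 3862 such cells uninjured, 1722 and 5571 at 72 h, and 1695 and 3736 at 6 weeks. The 2 classes are ranges of a score, with 495, 257 and 254 cells near the dividing value. The zonation lists were chosen by the study on these libraries. All 3 inhibitors were higher at the central end in all 3 libraries. Bambi was at 283 CPM in PaHSC-like and 482 in CaHSC-like cells uninjured, 328 and 654 at 72 h, and 241 and 550 at 6 weeks, which are ratios of 0.587, 0.502 and 0.437. The ratio for Smad6 was 0.663, 0.713 and 0.618, and for Smad7 0.668, 0.672 and 0.665. The inhibitor gradient was therefore of like direction in uninjured and injured liver, with no replicate of any of the 3 libraries. Against the uninjured library, the 72 h fold was 1.36 in CaHSC-like and 1.16 in PaHSC-like cells for Bambi. It was 1.87 and 2.01 for Smad6, and 1.18 and 1.19 for Smad7. Each was below the fold of the whole class (1.49, 2.06 and 1.29). CaHSC-like cells were 5571 of 7293 at 72 h and 3862 of 6850 uninjured. The part of this make-up in the folds was not tested.

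Bmp4 had a portal excess that was large in 1 library. It was at 109 CPM in PaHSC-like and 96.8 in CaHSC-like cells uninjured (ratio 1.13), at 74.3 and 23.9 CPM at 72 h (ratio 3.11, 2.89 to 3.35), and at 64.9 and 53.2 CPM at 6 weeks (ratio 1.22). Against the uninjured library, Bmp4 at 72 h was thus 4.05-fold lower (3.81 to 4.32) in CaHSC-like and 1.47-fold lower (1.38 to 1.58) in PaHSC-like cells. The other ligands showed less of this at 72 h. The 72 h fold was 0.546 in CaHSC-like and 0.672 in PaHSC-like cells for Gdf2, 0.306 and 0.338 for Bmp10, and 0.400 and 0.5262 for Bmp5. Their portal to central ratios, uninjured, at 72 h and at 6 weeks, were 0.979, 1.205 and 1.08 for Gdf2. They were 1.11, 1.23 and 1.40 for Bmp10 and 0.981, 1.29 and 1.22 for Bmp5. At 6 weeks the portal excess of Bmp10 was thus larger than that of Bmp4. The 6-week fold for Gdf2 was 1.04 in PaHSC-like and 0.944 in CaHSC-like cells. It was 1.13 and 0.894 for Bmp10 and 1.16 and 0.932 for Bmp5. By the 2-fold rule no member differed between the zones uninjured, against 0.931% of 8053 genes higher and 0.472% lower in PaHSC-like cells. At 72 h 1 of the 9 was higher (Bmp4) and none lower, against 2.05% and 1.99% of 7892 genes. At 6 weeks none was higher and 1 lower (Bambi), against 1.83% and 1.72% of 7905 genes. Of genes that were used to choose the zones, the portal Ngfr had ratios of 2.86, 4.44 and 3.55, and the central Adamtsl2 0.351, 0.248 and 0.228. The target genes differed in sign at 6 weeks, when Id1 had a ratio of 1.37 and Id3 of 0.760, whereas uninjured both lay near 1 (1.08 and 1.06). Against the uninjured library, Id3 at 6 weeks was 1.19-fold in PaHSC-like and 1.66-fold in CaHSC-like cells.

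Cells with high fibrillar collagen were mostly central at 72 h (4281 of 4530), so collagen was also compared inside the CaHSC-like cells, a division chosen after the data had been seen. Within CaHSC-like cells at 72 h, collagen-high cells had Gdf2 at 358 CPM and collagen-low cells at 509 CPM, a ratio of 0.702 (0.684 to 0.722). Bmp10 was at 34.6 and 52.3 CPM (ratio 0.662, 0.607 to 0.722), and Bmp4 at 21.2 and 34.3 CPM (ratio 0.620, 0.557 to 0.691). Bmp5 (0.815), Id1 (0.807) and Id3 (0.813) were also lower in collagen-high cells, by less. The 3 inhibitors did not share this: Bambi had a ratio of 1.03, Smad6 of 1.11 and Smad7 of 1.01. In the uninjured library Gdf2 (0.949) and Bmp10 (0.901) differed little by collagen, and at 6 weeks the ratios were 0.817 and 0.760, with Bmp4 at 1.07. Median depth over all HSC-like cells of the 72 h library was 12519.5 UMIs in collagen-high and 10156 in collagen-low cells.

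**Figure D3:**
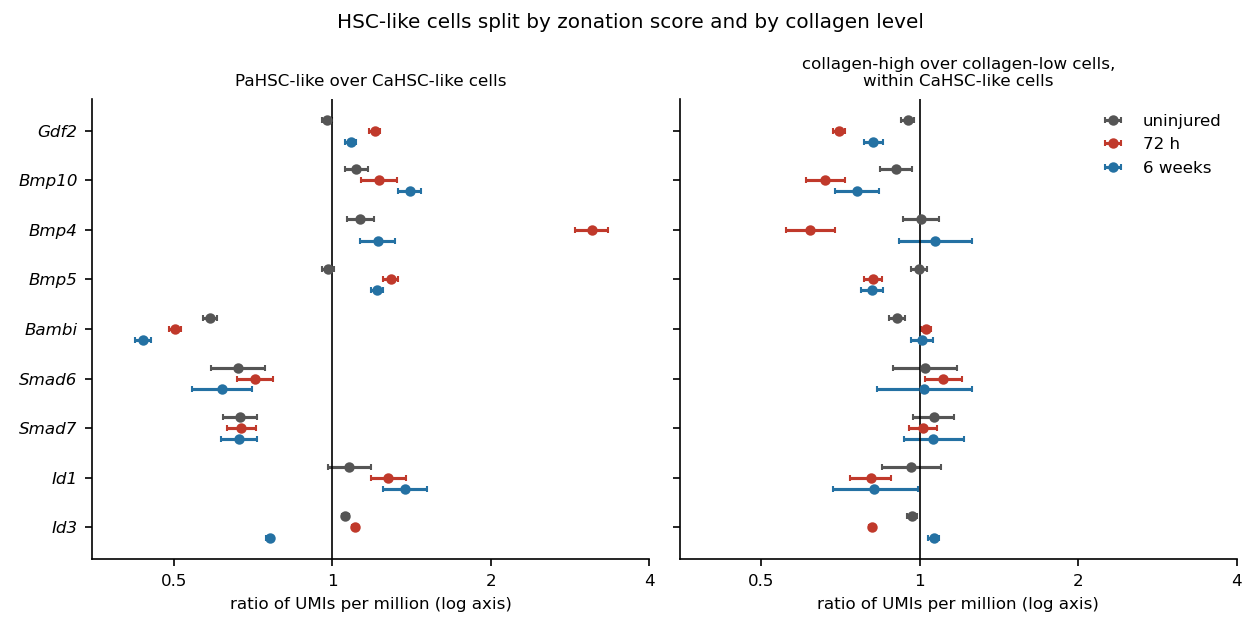
Ratio of levels (log axis, 95% interval from counting error only) for the 9 genes in the 3 HSC protocol libraries, on the left of PaHSC-like to CaHSC-like cells and on the right of collagen-high to collagen-low cells within the CaHSC-like class. On the left Bambi, Smad6 and Smad7 lie below 1 in all 3 libraries and Bmp4 is at 3.11 at 72 h; on the right the 72 h points of Gdf2 (0.702), Bmp10 (0.662) and Bmp4 (0.620) lie furthest below 1.

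After thinning, HSC-like cells that kept a Gdf2 UMI held the other HSC-enriched ligands about as often as cells without one. In a separate random thinning of the same cells to 2000 UMIs, which gave Gdf2 in 5075 of 6736 uninjured HSC-like cells, a Bmp10 UMI was found in 22.9% of cells with Gdf2 and 21.4% of those without, and a Bmp5 UMI in 62.8% and 62.1%. At 72 h the values were 8.43% and 7.596% for Bmp10 and 37.0% and 32.2% for Bmp5. At 6 weeks they were 21.9% and 20.1% for Bmp10 and 60.9% and 57.5% for Bmp5. Before thinning, 97.2%, 93.6% and 96.9% of HSC-like cells held a Gdf2 UMI (uninjured, 72 h and 6 weeks). Most cells without Gdf2 here had thus lost it in the draw, so these shares cannot show whether the ligands are expressed together.

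In FB-like cells Id1 was the member that differed most between the 6-week and the uninjured library. Id1 was at 29.1 CPM uninjured and 61.8 at 6 weeks, a fold of 2.12 (1.92 to 2.35), and was higher in all 4 FB-like clusters, with values of 35.6 and 69.6, 31.8 and 64.9, 25.8 and 59.2, and 11.3 and 36.7 CPM. The share of FB-like cells with an Id1 UMI was 11.0% and 27.7%, or 5.53% and 11.2% after thinning. Id3 did not follow it, at 737 and 785 CPM (1.06-fold). Bmp5 was 1.75-fold higher (1.46 to 2.09) at a low level, and Bmp4 0.764-fold (0.724 to 0.806). In the same cluster order, Bmp4 was at 216 and 182, 215 and 202, 71.0 and 73.3, and 78.0 and 55.3 CPM. The cluster at 215 and 202 CPM held 1518 and 507 cells, and that at 71.0 and 73.3 CPM held 754 and 1036. The part of this make-up in the Bmp4 fold was not tested. By the 2-fold rule 1 of the 7 members over 10 CPM was higher (Id1) and none lower, against 1.48% of 8421 genes higher and 0.487% lower. The members' median log2 fold was 0.20 and that of all genes -0.01. In the same cells the 6 VSMC marker genes summed to 549 CPM uninjured and 1438 at 6 weeks, and VSMC-like cells had the highest Id1; the part of such transcripts in the Id1 difference was not tested.

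In VSMC-like cells the corresponding gene was Smad6. Its level was 29.02 CPM uninjured and 82.4 at 6 weeks, a fold of 2.84 (2.41 to 3.36), with a UMI in 9.29% and 25.3% of cells, or 5.81% and 13.7% after thinning. The size of the difference varied between clusters: Smad6 went from 29.7 to 137 CPM in the cluster with 300 uninjured and 1330 6-week cells, from 28.9 to 42.0 CPM in the largest uninjured cluster of 1243 cells, and from 28.8 to 55.0 CPM in the smallest. Id1 was 1.26-fold (1.21 to 1.31) and Id3 1.19-fold the uninjured level. In VSMC-like wells of the plates the mean of Id1 was instead lower after CCl4, on 2 of 2 plates, but the portions overlapped. Id1 was at 568 ± 129 RPM (SD, n = 6) uninjured and 448 ± 218 RPM (n = 4) after CCl4, a log2 fold of -0.332. The portions lay between 447 and 743 RPM uninjured and between 276 and 767 RPM after CCl4. In the same wells Bmp4 had a log2 fold of 0.596, Bambi of -0.3145 and Bmp5 of 0.694. In the 10x libraries Bmp4 went the other way, 0.592-fold (0.485 to 0.724). Bambi was also lower there, 0.8005-fold (0.730 to 0.878), and Bmp5 was 1.88-fold higher (1.39 to 2.60). By 10x cluster, in the order given for Smad6, Bmp4 went from 38.3 to 15.6, from 7.17 to 9.13 and from 123 to 68.9 CPM. By the 2-fold rule 1 of 7 members was higher (Smad6) and none lower, against 2.41% of 8224 genes higher and 0.474% lower. The median log2 fold was 0.25 for members and 0.05 for all genes. The 8 HSC marker genes summed to 1678 CPM uninjured and 4573 at 6 weeks in these cells. Smad6 was at 26.9 CPM in the HSC-like cells of 6-week liver and at 82.4 CPM here. The part of HSC transcripts in the Smad6 difference was not tested. In VSMC-like wells of the plates Smad6 was not higher after CCl4, with means of 18.9 RPM uninjured and 13.7 RPM after CCl4.

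The plates carried the only replicated comparison and held BDL liver. In FB-like wells Bmp4 and Bambi were lower after BDL than in uninjured liver, but neither passed the test over all genes. Bmp4 was at 138, 36.5, 136, 70.6 and 134 RPM in the 5 BDL portions and at 416, 212, 188, 207, 249 and 314 RPM in the 6 uninjured portions. Every BDL portion lay below every uninjured portion, and the 4 CCl4 portions (250, 171, 120 and 172 RPM) overlapped both. The log2 fold of BDL against uninjured was -1.36 ± 0.35 (SE), with an unadjusted p of 0.00104 and an adjusted p of 0.123 by edgeR's quasi-likelihood test, and Bmp4 was lower on 3 of 3 plates that held both conditions. Bambi was at 201, 123, 112, 41.0 and 78.1 RPM in BDL portions and at 165, 446, 140, 217, 344 and 309 RPM in uninjured portions, so that the groups overlapped in the highest BDL and the 2 lowest uninjured values. Its log2 fold was -1.32 ± 0.39 (SE; adjusted p = 0.193 by edgeR's quasi-likelihood test). Every BDL portion was below the uninjured portion of its own plate on plates 2 and 4, whereas on plate 1 the larger BDL portion (90 wells, 201 RPM) was above it (165 RPM) and the smaller (12 wells, 123 RPM) below. With DESeq2's Wald test the adjusted p was 0.00572 for Bmp4 and 0.0323 for Bambi, the lowest among 24 alternatives, whose range ran up to 0.988 for both genes when all portions of the same label were merged.

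Part of the class differed in its clusters. One FB-like cluster, led by Cyp26a1, C1qtnf3 and Chad, held 70 BDL wells, 1 CCl4 well and no uninjured well. In the FB-like cluster shared most evenly by the conditions, Bmp4 had a median of 175 RPM in BDL portions (11.7 to 202) and of 311 RPM in uninjured portions (212 to 536), which did not overlap. In the next cluster the medians were 107 and 127 RPM, and the ranges (44.9 to 130 and 82.9 to 157) overlapped. Bambi in these 2 clusters overlapped between conditions, at 62.03 to 318 against 123 to 446 RPM and at 70.6 to 307 against 117 to 364 RPM. Bmp4 in the cluster of BDL wells had a median of 106 RPM and Bambi of 90.7 RPM. Cholangiocyte markers summed to 56.9 to 2308 RPM in FB-like BDL portions and 8.28 to 26.5 RPM in uninjured ones, and immediate-early genes to 7272 to 24320 and 13687 to 23694 RPM; their part in the differences was not tested.

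In VSMC-like wells Bambi was likewise lower after BDL, at 64.7, 67.3, 170, 108 and 66.5 RPM against 134, 182, 239, 185, 254 and 200 RPM in uninjured portions. Only the highest BDL portion lay within the uninjured range. Its log2 fold was -0.99 ± 0.30 (SE; adjusted p = 0.208 by edgeR's quasi-likelihood test), and it was lower on 3 of 3 plates. Immediate-early genes summed to 11117 to 17723 RPM in these BDL portions and 16548 to 27923 RPM in the uninjured ones. The HSC marker sum had a median of 7232 RPM (3177 to 9680) in the same BDL portions and 2515 RPM (1934 to 7160) in the uninjured ones, and the part of both lists was not tested. Without that BDL portion the log2 fold was -1.33 and the adjusted p 0.0769, in a range of 0.0552 to 0.931 over 24 alternatives. Id1 in FB-like wells, the gene that differed in the 10x libraries, was at 26.1 ± 12.0 RPM (SD, n = 6) in uninjured, 45.0 ± 16.1 (n = 4) in CCl4 and 43.7 ± 16.1 (n = 5) in BDL portions. The log2 fold was 0.78 ± 0.43 (SE) for CCl4 and 0.73 ± 0.41 for BDL, with adjusted p of 0.999 and 0.722 by the same edgeR test, and Id1 was higher on 2 of 2 plates with CCl4 and, for BDL, higher on 2 plates and lower on 1. Smad6 in VSMC-like wells, the other such gene, was not higher on the plates. It was at 18.9 ± 13.4 RPM (SD, n = 6) uninjured and 13.7 ± 5.20 RPM (n = 4) after CCl4. The log2 fold was -0.448, opposite in direction to the 10x libraries, and -0.679 to -0.0844 over 24 alternatives. Smad6 was higher on 1 plate with CCl4 and lower on 1. Id3 was at 890 ± 372, 1191 ± 264 and 1024 ± 203 RPM in FB-like uninjured, BDL and CCl4 portions, which overlapped.

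None of the 9 genes passed an adjusted p of 0.05 in any of the 6 plate comparisons by edgeR's quasi-likelihood test, which covered 8 members in FB-like wells and, for VSMC-like wells, 7. Few genes passed at all. On simulated counts for BDL against uninjured, the test recovered 6% (FB-like) and 4% (VSMC-like) of 2-fold rises and 0% and 6% of 2-fold falls. It recovered 32% and 46% of 4-fold rises and 16% and 24% of 4-fold falls. A gene that did not pass may therefore still differ between conditions. In FB-like wells 37 of 12873 genes (0.287%) passed for BDL against uninjured, 0 (0%) for CCl4 against uninjured and 2 (0.0155%) for BDL against CCl4. In VSMC-like wells 42 of 13076 (0.321%), 0 (0%) and 1 (0.00765%) passed. For CCl4 against uninjured, an unadjusted p under 0.05 was obtained for 669 of 12873 genes (FB-like) and 611 of 13076 genes (VSMC-like). Such a threshold passes about 1 gene in 20 where none differs, so these counts cannot be read as an excess. DESeq2 called 76 and 57 genes.

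**Figure D4:**
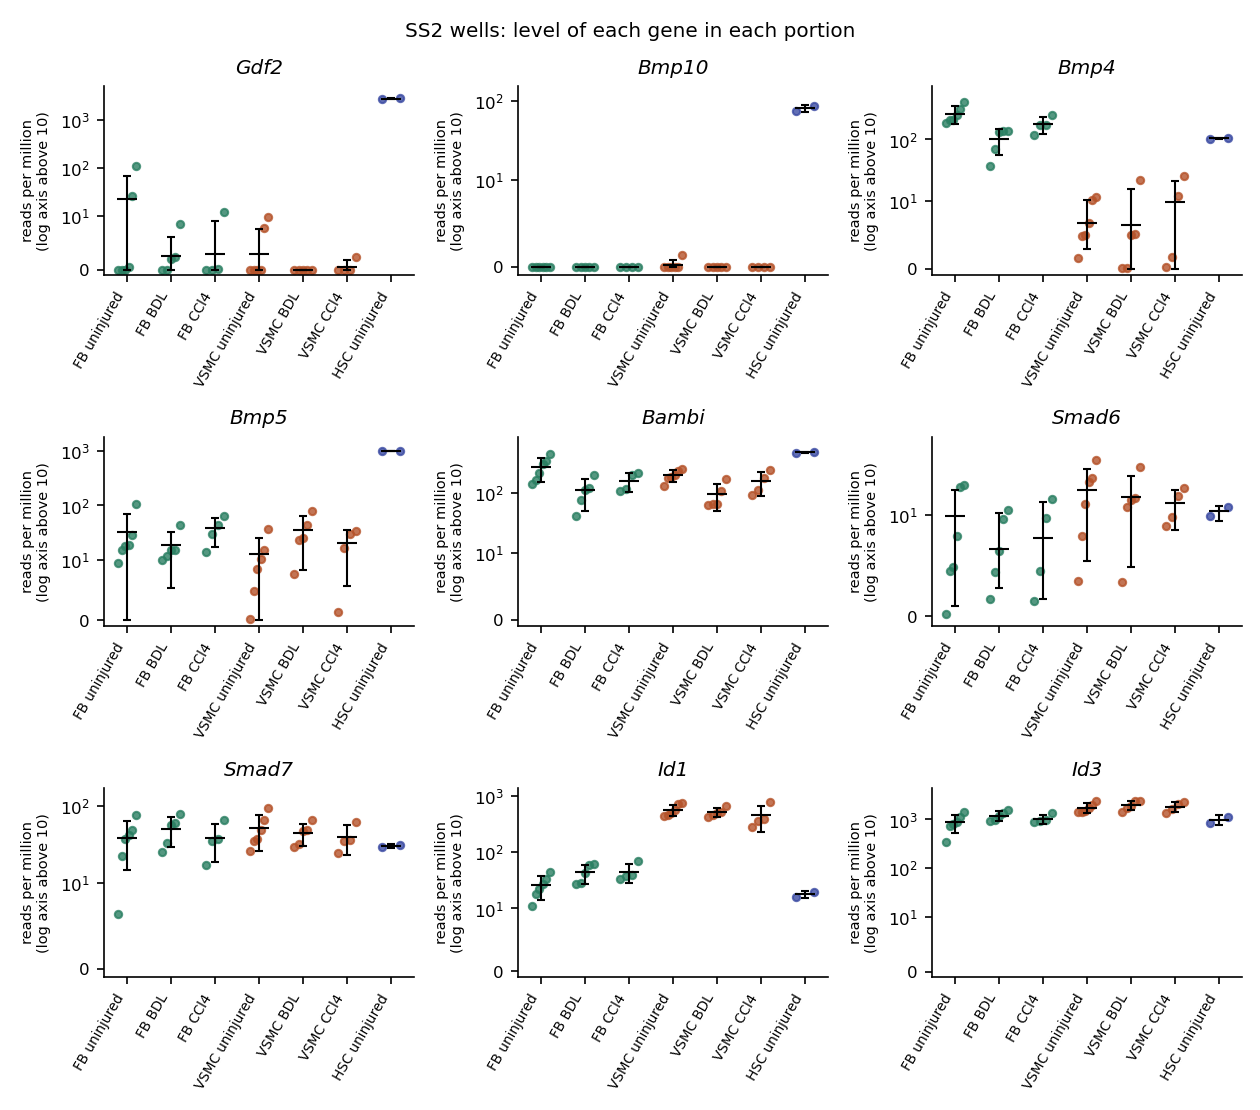
Level in RPM (axis linear up to 10, log above) of the members in FB-like, VSMC-like and uninjured HSC-like wells; each point is 1 portion of a plate, and bars give the mean and SD, with the lower end cut at 0. Bmp4 in FB-like wells lies between 36.5 and 138 RPM in the 5 BDL portions and between 188 and 416 RPM in the 6 uninjured portions.

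Among 90 other genes of the BMP and TGF-beta pathways, HSC-like cells at 72 h had more genes at a lower than at a higher level. Of the 38 that reached 10 CPM, 1 was at least 2-fold higher and 10 were at least 2-fold lower, against 7.05% and 9.56% of all genes, and their median log2 fold was -0.20, near the -0.22 of all genes. The lower genes were spread over the roles: 3 of 5 ligand genes, 1 of 10 receptor genes, 1 of 5 Smad genes, 2 of 11 antagonist genes and 3 of 7 target genes. Bmp2, the ligand gene most like Bmp4, went from 190 to 39.5 CPM at 72 h (4.83-fold lower, 4.64 to 5.02) and was at 85.2 CPM at 6 weeks (2.24-fold lower, 2.16 to 2.32). The target genes moved in both directions. Sgk1, a kinase gene that also responds to glucocorticoid and cell stress, went from 443 to 111 CPM. Tob1, an antiproliferative gene listed with the antagonists and not the targets, went from 25.6 to 7.06 CPM. Atoh8, a bHLH gene known as a BMP target in liver and endothelium, went from 9.14 to 38.2 CPM, a fold of 4.18 (3.78 to 4.64), and was at 32.5 CPM at 6 weeks, a fold of 3.55 (3.19 to 3.96). At 6 weeks 2 of 37 pathway genes were at least 2-fold higher, Atoh8 and Id2 (74.6 and 154 CPM, 2.06-fold), and 1, Bmp2, was lower, against 2.86% and 1.56% of all genes. In FB-like cells at 6 weeks 4 of 48 were higher and 1 lower, against 1.48% and 0.487% of all genes. In VSMC-like cells none of 44 passed in either direction, against 2.41% and 0.474%. On the plates, none of the pathway genes tested (67 for FB-like, 66 for VSMC-like wells) passed by edgeR's quasi-likelihood test.

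Across 27 groups of a cluster in a library, each of at least 100 cells, the genes with the pattern most like each member other than Bmp5 were taken among 5111 genes with at least 50 CPM in some group. These correlations of log2(CPM + 1) are descriptions, since groups share libraries, depth and cell class. For Gdf2 they were Reln (Pearson r = 0.991), which was itself among the markers that name HSC-like cells, and Bco1 (0.991), and for Bmp10 they were Dcdc2a (0.996) and Colec10 (0.993). Bmp4 was nearest to Ctsl (0.910) and Dnajc1 (0.868). Bambi was nearest to Sprn (0.917) and Hlx (0.901). The 2 inhibitory Smad genes shared a neighbour: Smad6 was nearest to Smad7 (0.841) and Gata4 (0.813), and Smad7 to Gata4 (0.913) and Actn1 (0.891). Id1 was nearest to Kitl (0.958) and Mgst3 (0.951), and Id3 to Ednra (0.896) and Adgrl1 (0.886). Within the 13 HSC-like groups Gdf2 went with Bmp5 (r = 0.983), Bmp10 (0.941) and Bmp4 (0.755) and opposite to Smad6 (-0.961), which differed from the pattern over all 27 groups for Bmp4 (-0.01) and Smad6 (0.195).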

How the data were processed

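Samples were grouped by their labels and wells by the plate layouts. The authors made the 10x tables with Cell Ranger 2.1.0 (mm10), and the deposited values are UMI counts per gene and cell. The deposited SS2 values are read counts per gene and well, which the authors obtained with STAR alignment (mm10), and both were used as raw counts. 10x cells with at least 300 genes and at most 30% mitochondrial UMIs were kept (30999 of 31018 barcodes), and SS2 wells within 3 median absolute deviations in reads, genes and spike-in share (2065 of 2292). Sums of UMIs were 46392040, 86664085 and 52235706 in the HSC protocol libraries (uninjured, 72 h, 6 weeks) and 25965670 and 31095219 in the PF protocol libraries (uninjured, 6 weeks), and summed SS2 reads were 3271476 to 46517981 per FB-like portion.

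Members and pathway genes were removed, 2000 variable genes and 10 principal components were used for Leiden clustering (leidenalg 0.10.2, resolution 0.8), and clusters were named from fixed markers; 296 SS2 wells stayed unnamed. Doublets were called but kept in the main values. UMIs were summed by class and library, with exact Poisson, Clopper-Pearson or conditional binomial 95% intervals. Genes with at least 10 CPM in the higher group were called at 2-fold. SS2 counts were summed over portions with at least 5 wells and tested across all genes with edgeR 4.0.16 (quasi-likelihood, TMM, all 3 conditions of a class in one fit, Benjamini-Hochberg adjustment) in R 4.3.3, after the scripts were tested on simulated data.

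The members, gene lists and tests were chosen with earlier results of these data known. Genes named besides the members were the pathway genes with at most the 3 largest folds each way in HSC-like cells and the 2 genes most like each member, a result not reported here for Bmp5. Alternatives covered doublets, stricter cell filters, marker-score classes, TMM scaling, thinning, DESeq2 1.42.0, the plate as a block, filters on wells and leaving out each portion. Merging portions of the same label, leaving out cell cycle clusters and the collagen division inside CaHSC-like cells were added after seeing the data.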

Additional observations from a re-analysis of the deposited data

Results flagged for a closer look

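Single portions stood apart from their group in 6 of 45 groups of portions examined. The rule compared the gap to the nearest other portion with the range of the group. It marks about 1 group in 20 by chance only when values are normally distributed. Several of these levels were near 0 with reads in few wells, so the count of 6 cannot be read as an excess. For Gdf2 in FB-like wells these were an uninjured portion of plate 5 at 111 RPM (the others lay between 0 and 26.0 RPM, and 6 of 32 wells had reads), a CCl4 portion of plate 3 at 12.1 RPM (the others 0 to 0.0895 RPM; 2 of 14 wells) and a BDL portion of plate 2 at 8.65 RPM (the others 0 to 2.43 RPM; 1 of 61 wells). For Bmp5 in FB-like wells they were the uninjured portion of plate 6 at 108 RPM (the others 9.50 to 28.8 RPM) and a BDL portion of plate 1 at 43.1 RPM (the others 10.1 to 15.4 RPM). For Bmp4 in VSMC-like wells it was a BDL portion of plate 2 at 21.9 RPM (the others 0.0373 to 5.03 RPM; 2 of 52 wells).

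At 6 weeks of CCl4 the direction differed between classes in 3 of 21 pairs compared, with 1 library a side, and the difference was not tested. Bambi was 1.16-fold the uninjured level in HSC-like and 0.8005-fold in VSMC-like cells. Within the HSC-like class, however, Bambi was 0.851-fold (0.817 to 0.887) in PaHSC-like and 1.14-fold (1.12 to 1.17) in CaHSC-like cells. The PaHSC-like value thus lay on the same side of 1 as the VSMC-like value. Id1 was 0.920-fold in HSC-like cells, 2.12-fold in FB-like cells and 1.26-fold in VSMC-like cells. With TMM scaling, however, the HSC-like value came to 1.05-fold, on the same side as the others. On the plates the mean of Id1 in VSMC-like wells was lower after CCl4, on 2 of 2 plates. The portions overlapped, at 276 to 767 RPM after CCl4 and 447 to 743 RPM uninjured.

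An unnamed SS2 cluster led by Msln, Upk1b and AU021092 held 19 CCl4 wells with Gdf2 at 131 RPM (a read in 63.2% of wells). This was above the highest uninjured portion outside the HSC-like class at 111 RPM. That portion is a sum over all its FB-like wells: within 1 FB-like cluster an uninjured portion reached 213 RPM, above the unnamed cluster.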

How the results depend on the processing

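Among the 10x comparisons, 55 of 56 counts of members past 2-fold stayed within 1.5 times of the main count; with marker-score classes no member was at least 2-fold higher in HSC-like cells at 72 h (0 in place of 1). Of 224 alternative folds 39 moved beyond their counting interval and 9 changed side of 1, all with main folds of 0.920 to 1.06. Thinning moved 57 of 63 shares of cells, zonation ratios moved in 13 of 27 alternatives without changing side, and collagen ratios in 15 of 27, with 3 changing side. Of 1080 alternative values for members on the plates, 2 became called (Bmp4 and Bambi in FB-like wells, BDL against uninjured, by DESeq2) and 52 changed sign. The number of all genes called on the plates depended on the test. For BDL against uninjured in FB-like wells (37) it was 269 with DESeq2, 0 with the plate as a block, 24 with at least 10 wells per portion, 71 with marker-score classes, 10 with plates 1 and 2 merged and 0 with all plates merged, and in VSMC-like wells (42) it was 265, 1 with the block, 2 and 0 with the mergers. For CCl4 against uninjured in FB-like wells (0) it was 76 with DESeq2, 62 with marker-score classes and 1 with plates 1 and 2 merged, and in VSMC-like wells (0) 57 with DESeq2. For BDL against CCl4 in FB-like wells (2) it was 65 with DESeq2 and 0 with the block, with marker-score classes and with all plates merged, and in VSMC-like wells (1) 69 with DESeq2 and 0 with the block and with all plates merged. The cause of these differences was not tested, apart from the fewer units that merging leaves. Leaving out 1 portion at a time gave 18 to 39, 0 to 1 and 0 to 3 genes in FB-like wells and 13 to 53, 0 to 1 and 1 to 2 in VSMC-like wells, in the order BDL against uninjured, CCl4 against uninjured and BDL against CCl4. With 1 library per condition, the intervals on 10x values cover counting error only.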

Other observations

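The SS2 plates held wells in clusters that the naming rules left unnamed, and the members differed among them. A cluster led by Notum, Iyd and Tnfrsf19 had high Bmp4 (329 RPM) and Bambi (370 RPM) in 77 uninjured wells, with Id1 at 119 RPM. In 35 CCl4 wells of the same cluster Bmp4 was at 259, Bambi at 180 and Id1 at 148 RPM. Its FB markers had a mean level of 0.620 relative to the highest cluster. That was above 0.484 in the FB-like cluster led by Cyp26a1, so unnamed wells can still resemble fibroblasts. A cluster led by Serpinb2, Mmp7 and Calca, with 134 CCl4 wells, had Bambi at 126 and Id3 at 1058 RPM but Bmp4 at 14.6 and Id1 at 14.6 RPM. The 19 CCl4 wells of the cluster led by Msln, Upk1b and AU021092, of which Msln encodes mesothelin, had Id1 at 277 and Id3 at 1472 RPM, with Bambi at 15.8 RPM and no Bmp10 read. These wells entered none of the main comparisons, and the values are sums over wells with no test. The alternatives with marker-score classes gave every kept well a class.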
